A study of Carica papaya with 15 samples.

Results

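The 100 most abundant transcripts of unripe papaya pulp were chosen from the values measured in control fruit at 0 h (C0h). They are the 100 rows with the highest mean over C0h A, C0h B and C0h C among 20332 rows, with LOC110813193, LOC110811182 and LOC110826274 left out. C0h values thus set the members, and every comparison with C0h below is a description with no test. Pulp of peeled "Golden" papaya, picked pre-climacteric and sanitized with chlorine, gave 15 RNA-seq libraries in 5 groups of 3. C0h, C12h and C24h were control fruit kept for 0, 12 and 24 h. T12h fruit were held in 100 ppm ethylene for 12 h and vented with air for 1 h before freezing. T24h fruit had the same exposure and venting, followed by 12 h in air. A, B and C stand for the 3 harvests, and the RNA of every library came from 5 or more pooled fruit. The replicates are therefore pools, with fruit from 1 commercial producer.

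A few transcripts usually fill a large part of the messenger RNA of a fleshy fruit. In climacteric fruit such as papaya, ethylene starts a programme of softening, colour change and aroma formation, and abundant transcripts of green pulp can give way to those of ripening. Metallothioneins, small cysteine-rich proteins that bind metals, are known as abundant transcripts of several ripening fruits.

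Values are normalized counts, in which a size factor puts the libraries on 1 scale, and are not corrected for gene length. The order of the members is thus an order of reads, and differences in level between members say nothing of molecules per gene. Of the 100 members, 98 were in the reference table of another papaya assembly and 33 carried a symbol, most of them named after Arabidopsis genes. LOC110822283 is a long non-coding RNA. Because only uniquely aligned fragments were counted, values of members with near-identical copies are uncertain, as are those of LOC110810892 and LOC110810894, which overlap on the reference assembly. The other members are given by their identifier with no function.

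Sums of all values ran from 8314364 to 9593068 in the control libraries other than C24h B, and from 10874253 to 13283883 in the treated ones. C24h B reached 12070774. Its values were nearly those of T24h C, a library of another harvest and treatment. Over the 100 members the median size of the log2 difference between these libraries was 0.044, and 98 members lay within 0.2 of each other. In the other 104 library pairs the median was at least 0.177, and at most 1.12. Over all genes the chi-square statistic of their reads, per degree of freedom, was 1.98, against 11.7 in the next closest pair, so they were close but not equal within counting error. Which label applies cannot be told apart from these values, and the library labelled C24h B is kept in its group, with its share, course, rank counts and counts of calls also given without it. Of the members, 76 in C24h B were closer to the mean of T24h than to that of C12h, against 16 in C24h A and 17 in C24h C. The T24h mean includes T24h C, so the count for C24h B is not separate from the likeness of these libraries. Seed marker symbols matched only 2 rows, the better one at rank 17018, and the best of 10 matches for green peel, LHCA6, was at rank 3629. Of the 20332 rows 4267 carried a symbol, and the others could not be matched. Whether rows of these tissues are among the members thus cannot be judged from the symbols.

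**Figure D1:**
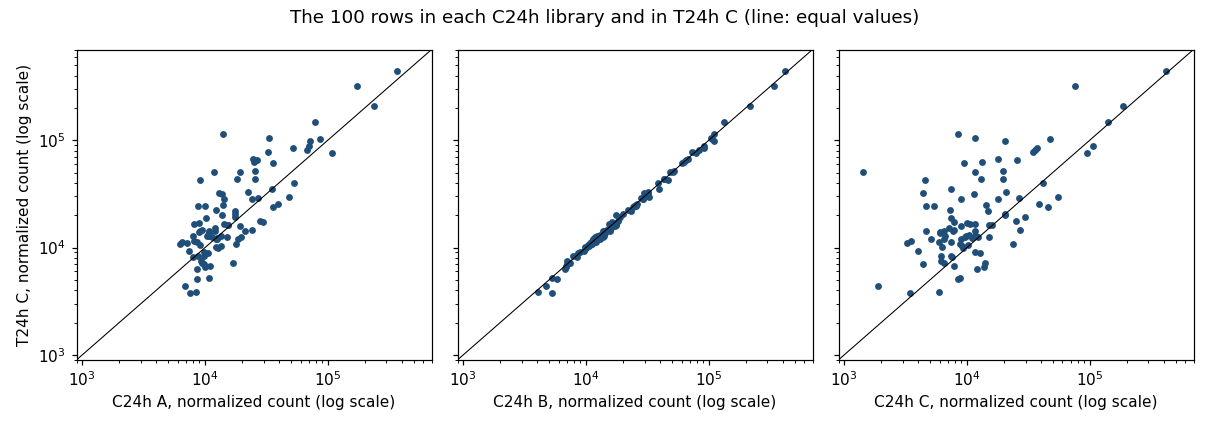
Each point is 1 of the 100 members, with its normalized count in T24h C on the vertical axis and in C24h A, B or C on the horizontal axis, both on log scales. The points of C24h B lie along the line of equal values, with 98 of 100 within 0.2 on the log2 scale, while those of C24h A and C24h C scatter widely.

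In C0h the members made up 32.4% ± 2.15 (SD, n = 3) of the summed value, from 30.3% to 34.6% in single libraries. The share was 29.9% ± 0.633 in C12h, 27.9% ± 1.1 in T12h, 29.6% ± 1.72 in C24h and 32.1% ± 1.41 in T24h (SD, n = 3 each). The T12h libraries reached at most 28.9% and the C12h libraries at least 29.5%, so these groups did not overlap, although the C24h range of 27.6% to 30.6% reached into both. Without C24h B the C24h share was 29.1%. The first 10 members alone held 16.2% in C0h, 15.1% in C12h, 12.8% in T12h, 14% in C24h and 13.8% in T24h. Members at ranks 11 to 100 held 16.2% in C0h and 14.9% in C12h, and their share was 15.1% in T12h, 15.6% in C24h and 18.3% in T24h. Against C0h, the T24h share was thus lower in the first 10 rows and higher in the others. In absolute terms the members summed to 3008589 in C0h, 2625575 in C12h, 3080566 in T12h, 2910896 in C24h and 3905411 in T24h. A change in a share and a change in cell number or in RNA per cell cannot be told apart in bulk pulp.

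**Figure D2:**
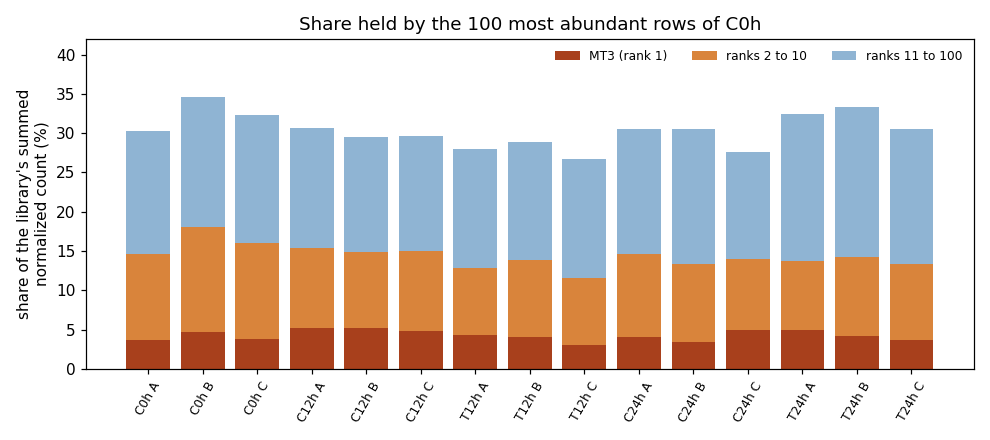
Stacked bars give, for each of the 15 libraries, the percent of the summed normalized count held by MT3, by ranks 2 to 10 and by ranks 11 to 100. The totals are lowest in the 3 T12h libraries and C24h C and highest in C0h B.

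Treated libraries were less evenly filled than controls of the same age, C24h B apart, although at 12 h of ethylene they overlapped C0h. The number of rows needed for 50% of the sum was 388 to 488 in C0h and 501 to 526 in C12h. It was 385 to 412 in T12h and 227 to 317 in T24h. In C24h it was 498 in A, 315 in B and 587 in C, so B stood with the T24h libraries.

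MT3 (LOC110812313), a metallothionein, was the most abundant member in every group. Its values were 334500, 450300 and 335600 in C0h A, B and C, and 445200, 468400 and 416800 in C12h. T12h had 461800, 457400 and 331800, C24h had 367200, 418700 and 415300, and T24h had 660400, 470800 and 438600. The groups overlapped, with T24h A far above all other libraries. Between C12h and T12h the log2 fold change was -0.10 ± 0.46 (SE) with an adjusted p of 0.887 by limma. MT2B, a metallothionein of type 2 at the lower end of the list, had values of 7460 to 10160 in C0h, 8333 to 14940 in C12h and 9336 to 11050 in T12h.

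LOC110808805, the second row, had no symbol. Its values were 284100, 340500 and 248100 in C0h, 225200, 243100 and 197100 in C12h, and 237700, 323700 and 196800 in T12h. In T24h they were 154400, 152900 and 210100. Its share of the sum was 3.13% in C0h and 1.43% in T24h.

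LOC110807787, the third row, took the opposite course. Its C12h values of 106100, 138500 and 97840 lay below all T12h values of 218300, 238900 and 276100. The difference between C12h and T12h was 1.11 ± 0.50 on the log2 scale and did not pass the test, with an adjusted p of 0.111 by limma. Its share was 2.0% in C0h, 1.30% in C12h, 2.21% in T12h and 2.71% in T24h, where it was the second most abundant of the members. Its neighbour on the reference assembly, LOC110807788, is also a member and showed no such course, with 10450 to 14130 in C0h, 9277 to 10840 in T12h and 9270 to 13190 in T24h.

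FTM1, an acyl-carrier-protein desaturase in Arabidopsis, had 75240, 97880 and 73260 in C0h. In C24h it had 70950, 109800 and 20300, a spread wider than that of any other group for this row, and in T24h 95170, 112700 and 97790. LOC110825152 had 54710 to 74050 in C0h, 52950 to 65580 in T12h and 80300 to 137500 in T24h. LOC110812529, LOC110809071, LOC110818765 and LOC110819970 complete the first 10 with LOC110810577, which fell with ethylene. Of these 4, LOC110819970 had the smallest T24h share relative to its start, 0.279% against 0.654% in C0h.

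**Figure D3:**
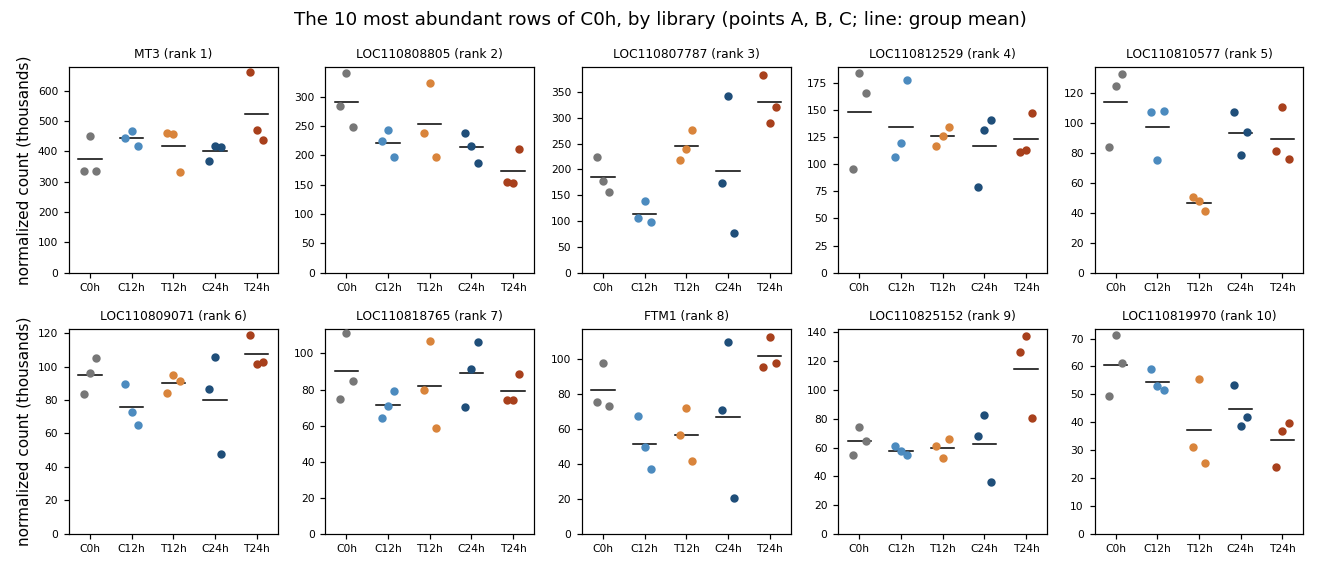
Each panel shows 1 of the 10 most abundant rows of C0h, with normalized counts, divided by 1000, for the libraries A, B and C of each group as points and the group mean as a line. LOC110810577 is lower in T12h than in all other groups, LOC110807787 is lowest in C12h, and C24h is the group with the widest spread in 3 of the panels shown, among them FTM1.

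At the other end of the list the limit was narrow. NHX2, a vacuolar cation antiporter in Arabidopsis, stood at rank 99 with a C0h mean of 7734, and LOC110806882 at rank 100 with 7607. APX2, an ascorbate peroxidase, stood just outside at rank 101 with 7599, followed by LOC110812566 at 7482. The SD over the C0h pools was 1127 for LOC110806882 and 111 for APX2, so the order of the rows on either side of the limit is not firm.

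Spread between C0h pools was uneven among members. The coefficient of variation was 61.4% for CEP1, 43.7% for LOC110808078 and 42.3% for LOC110825990. It was 3.11% for LOC110817458, 3.83% for LOC110826413 and 5.54% for LOC110808738. Over the members the median SD of the log2 values was 0.254 in C0h, 0.217 in C12h, 0.233 in T12h, 0.50 in C24h and 0.278 in T24h. Over all tested genes it was 0.2607, 0.2325, 0.2528, 0.4283 and 0.3308 in the same order, so C24h was widest there too. In C24h 50 members had an SD above 0.5, against 7 in C0h. C24h C was the lowest of its 3 libraries for 67 members and C24h B the highest for 59. Neither these counts nor those of SDs above 0.5 were made over all genes.

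The 33 symbols were set against 20 lists of symbol patterns, of which 16 took in no member. This count follows the spelling of symbols, since CEP1, a cysteine protease, HA4, a proton pump, and BMY3, a beta-amylase at rank 28, were missed by the lists of their kind. Those with a member were the metal-binding list, with MT3 and MT2B, the cell wall list, with XTH31 and XTH28, the aquaporins, with GAMMA-TIP, and the chaperone pattern, which took in HSPRO2 by its letters although that gene is no chaperone. Among symbols that matched a pattern, the best ribosomal protein row was RPL23AB at rank 507, and the best glycolytic one LOS2, an enolase, at rank 178. Of the same matches the best ethylene synthesis gene was ACO1, which makes the last enzyme of the pathway, at rank 276. Matches of photosystem and Rubisco genes began at rank 1192 with PSAF. Genes without a symbol, or with one spelled otherwise, could not be placed in any list, so further members of these kinds may have been missed.

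Over the first 12 h of storage without ethylene most members were lower than at the start. In C12h 80 had a lower mean log2 value than in C0h and 20 a higher one, with a median difference of -0.19 against 0.02 over all tested genes. In T12h 48 were lower and 52 higher, with a median of 0.01. In C24h 62 were lower and 38 higher, but without C24h B 80 and 20, with a median of -0.22. In T24h 36 were lower and 64 higher, with a median of 0.32 and a range of -1.50 to 3.00. C0h chose the members, so these counts carry no test.

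Of the 100 members, 88 were also among the 100 highest rows by mean in C12h, 82 in C24h, 69 in T12h and 69 in T24h. By single library the count was 87 to 93 in C0h, 82 to 88 in C12h, 65 to 68 in T12h and 65 to 70 in T24h. The 3 C24h libraries had 92, 68 and 76, and by the mean without C24h B the count was 89. By group mean the lowest rank of a member in treated fruit was that of LOC110823677, at rank 469 in T12h and 359 in T24h. That row had 10900, 8731 and 7435 in C0h and 3877, 3821 and 2522 in T12h. GAMMA-TIP, a water channel of the vacuolar membrane, was at rank 85 in C0h and at rank 219 in T12h and 307 in T24h.

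Rows that entered the 100 highest in their place numbered 31 in T12h and 31 in T24h, of which 15 were shared, 48.4% of each. Their median rank at the start was 270 in T12h and 183 in T24h. C12h had 12 such rows and C24h 18. Newcomers are high in their group and outside the list at the start, so a rise from C0h largely comes with the choice. The highest newcomer of T12h, LOC110820622, had 4923, 1630 and 1484 in C0h and 27070, 31970 and 45730 in T12h. TLP-3 had 2128, 699.5 and 308.0 in C0h and 26140, 24940 and 24130 in T12h. LOC110806540 and LOC110810025, 2 further newcomers, had 1932 and 7127 as C0h means and 24060 and 23020 as T12h means. LOC110825971, a pseudogene in the reference table, came from rank 6886 to 39 in T12h and 23 in T24h, with 510.0, 32.58 and 7.129 in C0h and 25820, 10500 and 33700 in T12h. In T24h the highest newcomers were LOC110812566, just outside the list at the start, and LOC110807004, which had been at rank 4827. LOC110825971 was the third, and LOC110822357 and LOC110824174 followed, the latter with 54320 in C24h B and 49890 in T24h C against 18940 and 21320 in T24h A and B.

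Ethylene for 12 h was compared with controls of the same age, which asks how abundant transcripts differed after the exposure and venting. Of the 100 members 17 passed an adjusted p of 0.05, 11 higher and 6 lower in T12h, against 24.1% of all 15270 tested genes called in either direction (11.7% higher and 12.3% lower). The share was thus below that of all genes, a gap that was not tested, while the 900 rows at ranks 101 to 1000 had 25%. By limma the median log2 fold change was 0.21 in the members and -0.01 over all tested genes. The gap in calls was not stable. With quantile normalization 24 members were called against 22.1% of all tested genes, and with harvest as a block 22 against 23.1%.

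Of the rises, 4 were in genes with a symbol. CEP1, a cysteine endopeptidase of the papain family linked in Arabidopsis to programmed cell death, was the largest. Its values were 1845, 10860 and 1072 in C12h A, B and C and 27230, 33580 and 45260 in T12h, so the groups did not overlap although C12h B was well above its fellows. The log2 fold change was 3.64 ± 1.05 with an adjusted p of 0.0251 by limma.

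HA4, a proton pump of the plasma membrane, had 6537, 6373 and 5813 in C12h and 12440, 18840 and 16090 in T12h. The groups stood clear of each other, and the log2 fold change was 1.32 ± 0.29 with an adjusted p of 0.0107 by limma. HMGS, the enzyme that makes hydroxymethylglutaryl-CoA for the mevalonate pathway, had 6573, 9058 and 6449 in C12h and 18240, 12830 and 16220 in T12h. It rose by 1.1 ± 0.30 on the log2 scale, with an adjusted p of 0.0200. MGL, a methionine gamma-lyase, had 6037, 7160 and 3491 in C12h and 10950, 11390 and 12540 in T12h, a rise of 1.12 ± 0.33. All 4 were higher in the treated library of each of the 3 harvests, as were 44 of the 100 members in all.

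Among rows without a symbol, LOC110810572 had 9089, 24670 and 9226 in C12h and 62240, 71180 and 68830 in T12h. It rose by 2.40 ± 0.72, with an adjusted p of 0.0290 by limma, and C12h B was again the highest control. LOC110817168 had 8465, 10560 and 7447 against 23290, 28920 and 38630, a rise of 1.76 ± 0.51. LOC110813024 rose by 1.42 ± 0.37 and LOC110806882, the last member of the list, by 1.33 ± 0.42. Each of these had groups that did not overlap, which the choice of rows by the test favours. The rises of LOC110814440, LOC110814218 and LOC110825991, which complete the 11, were between 0.65 and 0.86.

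The falls took in 3 genes with a symbol. MAN1, an endo-beta-mannanase of the cell wall, had 34280, 21460 and 25620 in C12h and 17720, 10980 and 10170 in T12h. All T12h values were lower, and the log2 fold change was -1.08 ± 0.28 with an adjusted p of 0.0174 by limma. MSBP1, a membrane steroid-binding protein, had 9966, 12520 and 13600 against 5288, 6875 and 5976, a log2 fold change of -0.99 ± 0.25. PKT4, a peroxisomal thiolase of fatty acid breakdown, had 16290, 15180 and 18060 against 9045, 13160 and 8193, or -0.73 ± 0.25 with an adjusted p of 0.0480.

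The most abundant row that changed was LOC110810577, at rank 5. It had 107700, 75500 and 107900 in C12h and 50600, 47950 and 41500 in T12h, a log2 fold change of -1.04 ± 0.32 with an adjusted p of 0.0301. Its T24h values of 81200, 110800 and 75780 overlapped those of C24h, which were 107700, 78730 and 94240. LOC110818604 had 12220, 12860 and 12510 in C12h and 6597, 5751 and 5534 in T12h, a fall by 1.08 on the log2 scale, and LOC110818759 fell by 1.1.

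Other members with a symbol did not pass the test. XTH31 and XTH28, which cut and rejoin xyloglucan in the cell wall, had log2 fold changes of 0.90 ± 0.52 and 0.85 ± 0.34, with adjusted p of 0.206 and 0.0792 by limma. HSPRO2 had 16980, 16790 and 8320 in C12h and 40090, 34170 and 24800 in T12h, groups that did not overlap, with an adjusted p of 0.0612. HDS, of the plastid pathway to isoprenoids, had 0.61 ± 0.24 with an adjusted p of 0.0714, and PDE345 had 0.87 ± 0.33 with 0.0700. ZDS, zeta-carotene desaturase of carotenoid synthesis, had 8145 to 10340 in C12h and 9540 to 11870 in T12h.

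Over the whole lists that these members belong to, 5 of 44 tested cell wall genes rose and 5 fell between C12h and T12h, with a median of -0.45. Of 17 aquaporins 1 rose and 2 fell, and the 4 genes of the metal-binding list had a median of -0.09.

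The counts depended on single libraries and on the scaling. Leaving out C12h A, C12h C, T12h A, T12h B or T12h C left 4, 3, 9, 7 and 3 members called, with 5.52% to 18.3% of all tested genes, while leaving out C24h B or C24h C, which only set the spread here, gave 26 and 29. Without C24h B 34% of all tested genes were called, and without C24h C 29%. With quantile normalization 3 members were higher and 21 lower, and with each library scaled to its sum 8 were higher and 15 lower, against 11 and 6. Of all tested genes 22.1% and 27.2% were called in these 2 settings. Scaling to the sum moved the median of all genes to -0.34 and that of the members to -0.13, so the members stayed above all genes by about as much as with the size factors, which was not so with quantile normalization, at -0.25 against -0.04. LOC110825991 had -0.04 there and was not a rise. The other 16 called members kept their sign in all alternatives run. Of all 100 members 62 were higher in T12h at any p, but 31 with quantile normalization and 43 with scaling to the sum, so uncalled members turned with the scaling.

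**Figure D4:**
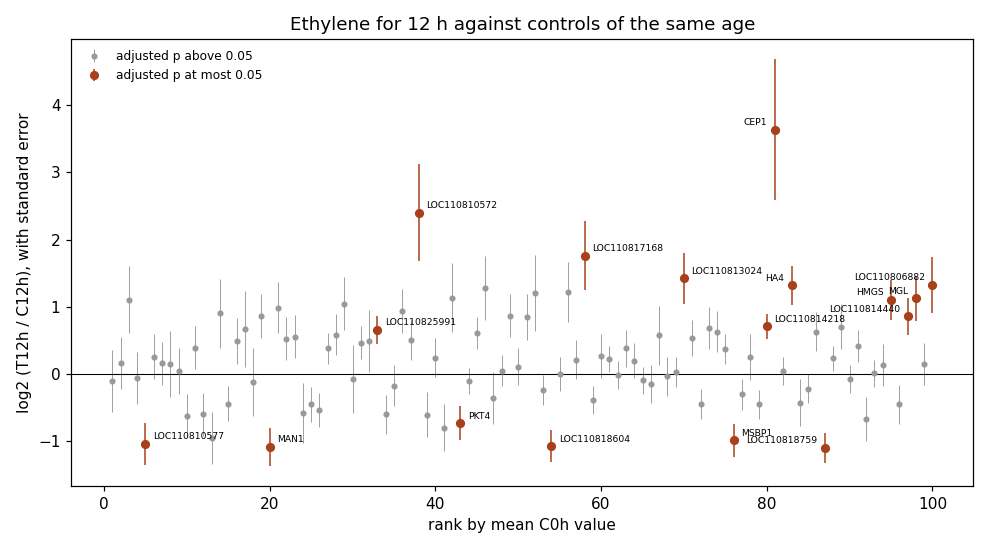
Each point is a member placed by its rank in C0h, with its log2 ratio of T12h to C12h and the standard error as a bar, and with members at an adjusted p of at most 0.05 in red and labelled. CEP1 stands highest at 3.64, and the labelled falls lie between -0.73 and -1.1.

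From T12h to T24h, after 12 h without the gas, 7 members passed the test, 6 higher and 1 lower, against 5.51% of all tested genes (3.21% higher and 2.31% lower). None of them had a symbol. T12h libraries also enter the comparison with C12h, so the values of both comparisons are not independent.

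LOC110813408 had 9240, 8864 and 11270 in T12h and 28270, 51910 and 31360 in T24h. It rose by 1.88 ± 0.39 on the log2 scale, with an adjusted p of 0.0188 by limma. Its C24h values were 13760, 31790 and 11310, so that C24h B alone lay within the range of T24h. LOC110819991, at rank 16 the most abundant of the 7, had 43790, 48350 and 45010 in T12h and 153900, 124700 and 77710 in T24h, a rise of 1.32 ± 0.34 with an adjusted p of 0.0405.

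LOC110810588 had 6159, 3685 and 5951 in T12h and 17690, 18130 and 8299 in T24h, a rise of 1.43 ± 0.32, and LOC110810729 rose by 1.31 ± 0.31. LOC110826413 had 5597, 6872 and 8974 against 12880, 17690 and 12780, a rise of 1.03 ± 0.22. It was among the rows with the least spread in C0h. LOC110818759, which fell in the first 12 h of ethylene, had 6314, 4315 and 4299 in T12h and 9724, 10930 and 7555 in T24h, and rose by 0.93 ± 0.22.

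LOC110812163 fell. Its values were 20550, 14100 and 16650 in T12h and 9825, 6813 and 7151 in T24h, a log2 fold change of -1.11 ± 0.30 with an adjusted p of 0.0460. In C24h it had 16970, 7299 and 14000. In each of the 7 rows the T12h and T24h values did not overlap, which the choice of rows by this test favours.

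Members with a symbol gave values short of the threshold. ZDS had 18370, 21340 and 14320 in T24h, all above T12h, with a log2 fold change of 0.79 ± 0.26 and an adjusted p of 0.0896 by limma. FAD5, a plastid desaturase of fatty acids, and PIFI, a chloroplast protein, lie next to each other on the reference assembly. FAD5 had 26130, 47130 and 38910 in T12h and 63610, 62650 and 104100 in T24h, and PIFI had 9560, 13510 and 10520 and then 17510, 15510 and 24280. Both were highest in T24h C and in C24h B, at 103300 and 25480, and lowest in C24h C, at 11640 and 4671.

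The 7 calls rested on few libraries. Without T12h B or T24h B 0 members were called, against 0.451% and 0.236% of all tested genes. Without T12h C 1 was called (0.78% of all), without T24h A 3 (7.47%), without T12h A 4 (3.39%) and without C24h B 11 (10.5%). On the 13 libraries whose reads were recovered, which lack T12h B and T24h B, limma and edgeR called 0, against 0.00654% and 0% of all. DESeq2 called 1, a row other than these 7, against 1.2%. By edgeR 10 members were at an unadjusted p of at most 0.05, which was not counted over all genes.

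**Figure D5:**
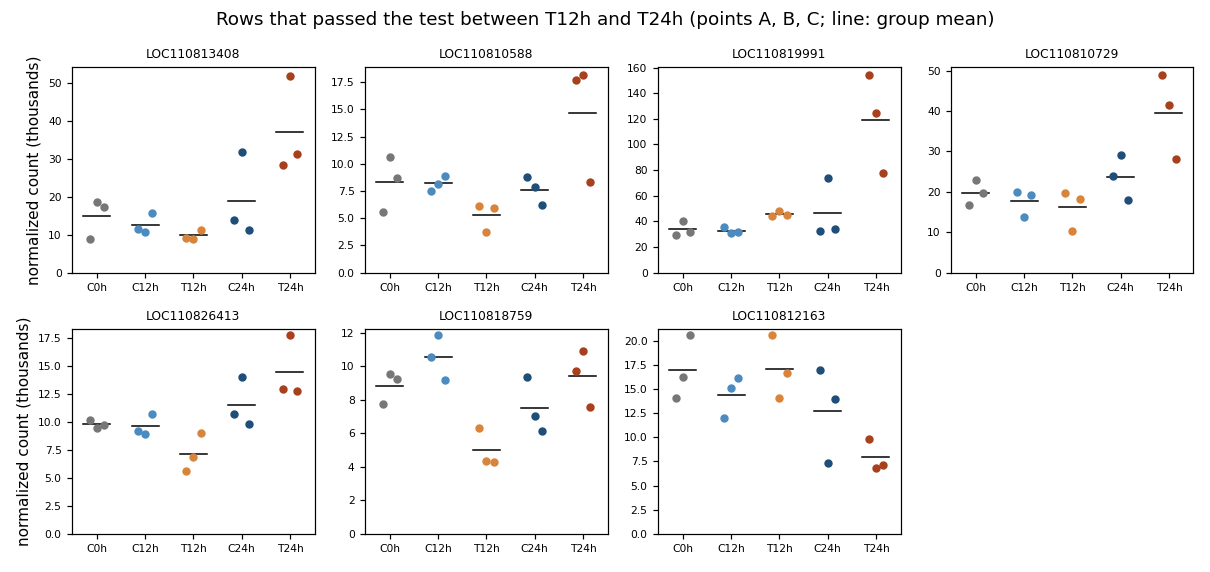
Each panel shows 1 of the 7 rows that passed the test between T12h and T24h, with normalized counts, divided by 1000, of libraries A, B and C as points and group means as lines. In 6 panels all T24h points are above all T12h points, and in the panel of LOC110812163 all are below.

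At 24 h, controls and treated fruit were compared 12 h after the gas was removed. No member was called by limma, against 0% of all tested genes, although 36 members had an unadjusted p of at most 0.05, as did 18.6% of all tested genes. Count tests on 13 libraries also called 0 members, with 19 at an unadjusted p of at most 0.05 by edgeR and 30 by DESeq2. The share of all genes at that unadjusted p was not counted for these tests. Over all 15290 genes they called 0 and 116. Without the library labelled C24h B limma called 47 members, 38 higher and 9 lower in T24h, against 23.6% of all tested genes (12.1% higher and 11.4% lower). The median log2 fold change of the members was then 0.47, against -0.01 over all tested genes and 0.25 at ranks 101 to 1000. With all libraries that median was 0.37, but -0.22 with quantile normalization and 0.04 with scaling to the sum, where the median of all genes was -0.33, so the direction of the members at 24 h turned with quantile normalization. Without both C24h B and T24h C 41 were called, 35 higher and 6 lower, against 18.7% of all tested genes, and without T24h C alone 0.

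The largest differences with all libraries were those of LOC110810572, CEP1 and LOC110808078. LOC110810572 had 14040, 110900 and 8465 in C24h and 173300, 118500 and 113600 in T24h, a log2 fold change of 2.49 ± 0.72 with an adjusted p of 0.182. CEP1 had 11800, 51240 and 1412 against 53290, 52690 and 50670. LOC110808078 had 19150, 48180 and 11670 against 117400, 75870 and 50470. In all 3 rows C24h A and C24h C lay far below T24h, while C24h B was near its lower end, and for CEP1 inside its range. Without C24h B their log2 fold changes were 3.61 ± 0.44, 3.68 ± 0.94 and 2.36 ± 0.45, with adjusted p of 0.000533, 0.0150 and 0.00401 by limma.

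On the lower side LOC110815107 had 35970, 23990 and 45350 in C24h and 10060, 15980 and 23870 in T24h, a log2 fold change of -1.12 ± 0.39. LOC110822434 had 48120, 32370 and 55190 against 15440, 24920 and 29400, or -0.98 ± 0.32. LOC110808738 had -0.91 ± 0.51, with overlapping groups. None of the 3 passed the test with all libraries, and without C24h B LOC110815107 and LOC110822434 did, at adjusted p of 0.0276 and 0.0182 by limma.

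Of the 47 members that passed without C24h B, 17 had a symbol. Higher in T24h were XTH31 by 2.25, FAD5 by 1.92, PIFI by 1.45 and FTM1 by 1.42 on the log2 scale. Of isoprenoid synthesis, HMGS was higher by 1.11, ZDS by 1.08 and HDS by 0.87. AIM1, of fatty acid breakdown in peroxisomes, was higher by 1.08, MGL by 1.14 and MOT1, a molybdate transporter in Arabidopsis, by 0.95. PDE345, PCAP1, a cation-binding protein of the plasma membrane, and HS1 had 1.21, 1.22 and 0.79. Lower were GAMMA-TIP at -0.85, MSBP1 at -0.74 and NADP-ME1, a malic enzyme, at -0.73. XTH31 showed the reach of C24h B, with 35670, 60100 and 9418 in C24h and 117000, 92330 and 61550 in T24h. Of the 17 members called between C12h and T12h, 9 (52.9%) were also called between C24h and T24h without C24h B, where they made 19.1% of the calls.

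Between C12h and C24h, control fruit kept without ethylene, no member was called by limma, against 0% of all tested genes, with 2 at an unadjusted p of at most 0.05, as were 3.6% of all tested genes. Count tests on 13 libraries called 0 as well, with 3 and 5 at that unadjusted p by edgeR and DESeq2, which was not counted over all genes. The wide C24h spread given above applies to this comparison too. The median difference of the members was 0.11, with 63 higher in C24h, but without C24h B it was -0.03, with 41 higher and again 0 called.

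An interaction term tested whether the effect of ethylene at 24 h was unlike that at 12 h. It called no member by limma, against 0% of all tested genes, with 6 at an unadjusted p of at most 0.05, as were 12.7% of all tested genes, and 3 and 5 by edgeR and DESeq2, which also called 0 members. Without C24h B 20 members were at that p and 0 were called, against 0.0589% of all tested genes called. For the count tests and without C24h B, the share of all genes at that unadjusted p was not counted. The smallest p was that of LOC110818759, lower in T12h than in C12h in all 3 harvests and higher in T24h than in C24h, with a difference of 1.43 and an adjusted p of 0.166.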

How the data were processed

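Pulp RNA of 15 pools, 3 for each of 5 groups, was read from stranded libraries. According to their methods, the authors used SeqyClean 1.10.09 to clean reads, FastQC 0.11.8 to check them, and STAR 2.6.0a to align them to Papaya1.0, keeping unique alignments. The counting tool is not given in the sources used here. The deposited signal values are the authors' counts per gene over DESeq2 (1.20.1) size factors, and were used unchanged. In 13 libraries 100% of values were whole multiples of the worth of 1 read to within 0.001, and T12h B and T24h B were not in this check. Reads of 13 libraries were recovered from these steps, 7999275 to 12542678 per library, while T12h B and T24h B, with a step near 1, were not taken as recovered. Precision is limited by 3 pools per group, which within a group were further apart than counting error allows (chi-square over its degrees of freedom 15 or more).

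The comparisons used limma 3.58.1 in R 4.3.3 on log2(value + 1), with a variance trend and all 5 groups in 1 fit, for 15270 genes whose mean was 5 or more. All 100 members passed this filter. P-values were adjusted by Benjamini and Hochberg over all tested genes, and a call is an adjusted p of at most 0.05. Fold changes on this scale understate those of low genes. The script was tested on simulated data. The harvest letters come from the labels and pair libraries by harvest. After removal of group means the median correlation was -0.0351 in 30 pairs of the same harvest and -0.0187 in 60 pairs of different harvests. The harvest was therefore a block only in an alternative.

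Members and lists were chosen with earlier results of these data known. Named rows were the first 10, up to 8 rises and 8 falls between C12h and T12h, up to 5 each between T12h and T24h, the 3 largest each way between C24h and T24h, the last 2 inside and first 2 outside the limit, the 3 largest and smallest coefficients of variation in C0h, the 5 highest newcomers of T12h and T24h, and up to 4 members of each list of symbols. Other symbols, and LOC110823677, LOC110807788 and LOC110812566 outside that rule, were named after their values were seen. Symbols came from the reference table of assembly ASM5485532v1, used for names and neighbours alone. Alternatives were TMM and quantile scaling, pseudocounts of 0.5 and 5, filters at 0 and at a mean of 50, the block, smaller fits, quality weights (a fit that stopped before convergence), and leaving out each library or harvest. edgeR 4.0.16 and DESeq2 1.42.0 were planned for all libraries and run on 13. Chosen after seeing the data were that restriction, limma on those 13, scaling to the library sum, and leaving out C24h B and T24h C together. edgeR called 1560 and DESeq2 3175 of 15290 genes between C12h and T12h. The order per coding length was not run, since coding lengths and sequences were not used here.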

Additional observations from a re-analysis of the deposited data

Results flagged for a closer look

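In 6 of the 100 members, every harvest had a lower value in T12h than in C12h and a higher one in T24h than in C24h. The pattern was not counted over all genes, so whether 6 is many is not known. All but LOC110825703 are also among the rises called between T12h and T24h, which rest on the same treated libraries. The difference between both effects, on the log2 scale, was 1.43 for LOC110818759, 1.55 for LOC110810588, 1.43 for LOC110813408, 0.90 for LOC110810729, 0.78 for LOC110826413 and 0.55 for LOC110825703. The opposite directions themselves were not tested. The interaction test gave adjusted p of 0.166 for LOC110818759, 0.248 for LOC110810588, 0.324 for LOC110813408, 0.411 for LOC110810729, 0.336 for LOC110826413 and 0.492 for LOC110825703 by limma, so none of the 6 passed it. These values rest on C24h B as the control of harvest B. The part of that library in the pattern was not tested.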

How the results depend on the processing

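Counts of members called moved with the fit and with single libraries, and the cause was not tested. Between C12h and T12h 17 were called, against 24.1% of all tested genes. With only the groups compared 35 were called (37.2% of all), and with quality weights 41 (44.3%). Without harvest A 1 was called (2%) and without harvest C 0 (0%). On 13 libraries edgeR called 7 (10.2%) and limma 7 (12.3%). Without C24h B and T24h C together 30 were called (34.4%), and with each library left out 3 to 29 (5.52% to 34%). Between C24h and T24h the count of 0 became 46 with quality weights, against 32.4% of all tested genes. It became 21 (15.5%) without harvest B and 41 (18.7%) without C24h B and T24h C together. With each library left out it was 0 to 47, the 47 without C24h B, where 23.6% of all tested genes were called. Between T12h and T24h the count of 7, against 5.51% of all tested genes, became 3 with quantile normalization (3.8% of all). It was 3 without the C0h libraries in the fit (3.26%) and 2 with only the groups compared (1.76%). Without harvest A, B or C it was 0 (2.15%, 0.00654% and 0%). On 13 libraries it was 0 by edgeR (0%), 0 by limma (0.00654%) and 1 by DESeq2 (1.2%). Without C24h B and T24h C together 16 were called (9.24%), and with each library left out 0 to 11 (0.236% to 10.5%). With quality weights 1 member was called between C12h and C24h and 6 in the interaction, against 6.67% and 7.18% of all tested genes. Without the weights both member counts were 0. The replicate block, pairing libraries by harvest, gave 22 members between C12h and T12h, against 23.1% of all tested genes. Between T12h and T24h it gave 7, against 4.38%, and none of the calls named was lost with the block. Of the members called between C12h and T12h or between T12h and T24h, LOC110825991 alone turned, to -0.037 with quantile normalization. A turn was recorded only where a call was made, so for the 6 named at 24 h it was not followed. The share held by 50 rows was 26.9%, 24.8%, 22.4%, 24.3% and 26.1% in C0h, C12h, T12h, C24h and T24h, and by 200 rows 39.0%, 36.4%, 34.8%, 36.6% and 39.8%. Leaving out 1 library of the group gave shares of the 100 members of 31.3% to 33.5% in C0h and 29.6% to 30.1% in C12h. In T12h they were 27.3% to 28.4%, in C24h 29.1% to 30.6% and in T24h 31.5% to 32.9%. Depth of 7999275 reads or more does not limit these rows.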
